A study of Mus musculus with 3 samples.

Results

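The genes described here are 8 regulators of Wnt signalling: the ligands Wnt2 and Wnt11, the secreted inhibitors Sfrp1, Sfrp2, Sfrp4 and Dkk2, the Dickkopf family member Dkk3, and Dact2. They were taken by symbol from the 28692 genes of the count matrices, and all 8 were found. Dact2 encodes a cytoplasmic protein that binds Dishevelled, so it is a Wnt regulator inside the cell and not a secreted one, although it was listed with the secreted inhibitors.

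The study measured RNA in single cells of the stromal vascular fraction, the non-adipocyte cells released when fat is digested, from inguinal white fat of C57BL/6 mice. There were 3 libraries: 1 came from saline-treated controls, 1 from mice kept at 4 C for 3 days (cold), and 1 from mice given the beta-3 adrenergic agonist CL 316,243 intraperitoneally at 1 mg/kg for 3 days (CL). The age and sex of the mice, the number pooled per library and whether the cold-exposed mice were injected are not given in the sources used here. With 1 library per treatment there is no spread between animals, so no test of a treatment was possible and every difference below is a difference between libraries. The comparisons of cold and of CL with saline share the saline library.

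Barcodes with at least 500 detected genes and at most 15% mitochondrial transcripts were kept, and predicted doublets were then left out. This gave 6185 saline, 3858 cold and 6641 CL cells with median depths of 3210, 3623 and 3837 unique molecular identifiers (UMIs, one per captured transcript). The doublet caller marked 86 saline and 64 CL barcodes but only 4 of the 3862 passing cold barcodes, so doublets were hardly removed from the cold library. Between 4 and 9 cell barcodes were shared by any 2 libraries. Adipose stem and progenitor-like cells (ASPC-like; Pdgfra, Dcn and Col1a1 among their markers) numbered 1220, 594 and 1072 in the saline, cold and CL libraries. Levels are given as CPM, the UMIs of a gene summed over the cells of a group per 1000000 UMIs of those cells. The 95% intervals beside them cover counting error only. Transcripts were counted from their 3′ ends, so CPM is not scaled to gene length.

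Wnt proteins are lipid-modified secreted ligands that bind Frizzled receptors together with the coreceptors Lrp5 and Lrp6, which stabilises beta-catenin and lets it act with TCF/LEF factors in the nucleus. Secreted Frizzled-related proteins (Sfrp) bind Wnt ligands outside the cell, and Dkk2 binds Lrp5 and Lrp6. Dkk3 is a divergent family member whose role in Wnt signalling is less settled, and Wnt11 is best known for signalling that does not use beta-catenin. In fat, Wnt signalling through beta-catenin is known to hold precursor cells back from becoming adipocytes.

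The promoters of 3 members are printed because these genes show 3 of the patterns below. Wnt11 is shared between stromal and dendritic cells, and Sfrp2 is the most abundant of the 8. Dkk2 is the only one of the 8 whose own level in ASPC-like cells was higher in the CL than in the saline and cold libraries. Each run is the 250 bases before the annotated start from RefSeq (GRCm38.p6, the build also called mm10), 5′ to 3′ on the gene's own strand. Capitals mark the TCF/LEF core TCAAAG and the cyclic AMP response core TGACG, searched on both strands, and the TATA box TATAAA, searched on the printed strand.
Wnt11, chr7:98834862-98835111, plus strand: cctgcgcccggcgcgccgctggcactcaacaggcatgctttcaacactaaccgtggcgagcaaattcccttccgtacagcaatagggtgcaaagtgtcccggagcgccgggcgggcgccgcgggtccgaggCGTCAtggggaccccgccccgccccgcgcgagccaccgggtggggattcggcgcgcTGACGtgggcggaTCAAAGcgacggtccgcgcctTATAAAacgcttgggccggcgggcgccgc
Sfrp2, chr3:83766071-83766320, plus strand: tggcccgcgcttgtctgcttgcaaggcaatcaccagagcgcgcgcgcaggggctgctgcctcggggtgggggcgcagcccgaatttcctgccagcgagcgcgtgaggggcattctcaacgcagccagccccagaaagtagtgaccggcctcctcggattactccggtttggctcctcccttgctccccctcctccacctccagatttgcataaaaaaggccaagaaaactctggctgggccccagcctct
Dkk2, chr3:132085042-132085291, plus strand: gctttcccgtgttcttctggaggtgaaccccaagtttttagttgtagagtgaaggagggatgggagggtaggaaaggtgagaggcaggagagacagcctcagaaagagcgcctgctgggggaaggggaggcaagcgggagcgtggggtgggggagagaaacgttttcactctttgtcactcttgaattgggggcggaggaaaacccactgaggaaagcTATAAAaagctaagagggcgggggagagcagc

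In the Wnt11 window TATAAA began 29 bases, TCAAAG 50 bases and the nearer TGACG 63 bases before the start. A second TGACG, on the reverse strand, began 119 bases before it. TATAAA lay 32 bases before the start of Dkk2, and the Sfrp2 window held none of these letters. Of all 32851 RefSeq windows of this length, 13.8% held TCAAAG, 17.8% held TGACG and 7.59% held TATAAA. The full response element TGACGTCA, which contains TGACG, was in 1.55% of windows and in none of the 6 windows of the 5 members in the table. A match describes the letters only. Windows of Wnt2 (chromosome 6) and Dact2 (chromosome 17) were in the table too and held none of the 4 motifs. Sfrp1 (chromosome 8), Sfrp4 (chromosome 13) and Dkk3 (chromosome 7) are named only.

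Of the 8 genes, 6 were almost wholly stromal. ASPC-like cells were 17.3% of all cells but held 99.2% of the UMIs of Sfrp2, Sfrp4 and Dact2, 98.8% of Wnt2, 94.7% of Sfrp1 and 93.4% of Dkk2. Wnt11 and Dkk3 were different, with 48.8% and 41.0% of their UMIs in ASPC-like cells. In all other cells together Sfrp2 stood at 1.79, 1.15 and 1.37 CPM in the saline, cold and CL libraries, against 462, 688 and 398 CPM in ASPC-like cells. In B cell-like cells, which should lack it, Sfrp2 was detected in 0.485% of saline cells at a median of 1730 UMIs. The share in saline ASPC-like cells was 54.6% at a median of 6419.5 UMIs. With every cell thinned to 2000 UMIs these shares were 0.503% and 34.2%.

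**Figure D1:**
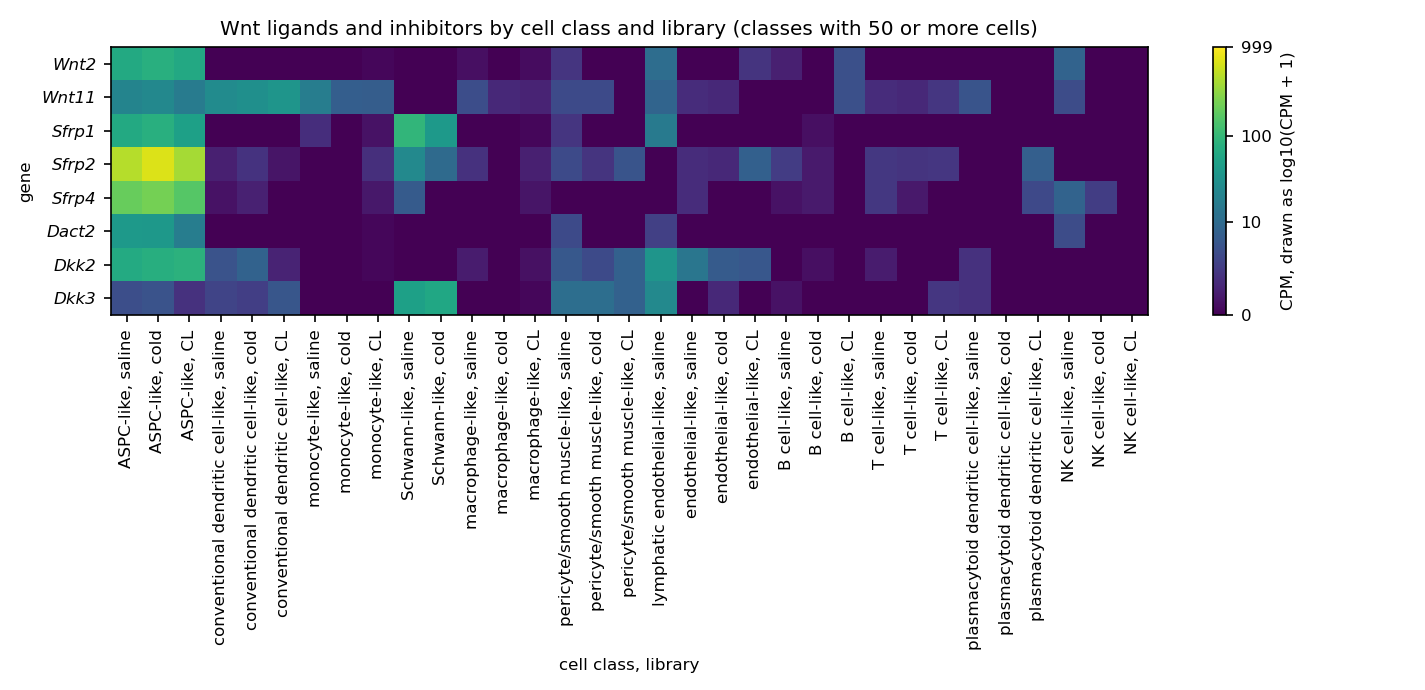
Level of each gene (rows) in each marker-defined cell class and library (columns, classes with 50 or more cells), coloured by CPM on a log10(CPM + 1) scale. The ASPC-like columns are the brightest for Wnt2, Sfrp2, Sfrp4, Dact2 and Dkk2, whereas Wnt11 is also bright in conventional dendritic cell-like cells and Dkk3 is brighter in Schwann-like than in ASPC-like cells.

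ASPC-like cells were clustered again, without any of the 95 Wnt-pathway genes among the clustering genes, so the clusters were not built on the levels described. Cluster 0 was Col15a1 committed preadipocyte-like, with Fabp4, Lpl and Col4a1 leading. Clusters 1 and 2 were Pi16 Dpp4 interstitial-like, on 4 and 9 markers of that subtype. Cluster 1 was led by Cilp, Myoc and Mfap4, and cluster 2 by Dmkn, Sbsn and Bmp3. Neither Pi16 nor Dpp4 was among the 10 leading genes of either cluster. Cluster 5 was Gdf10 F3 Fmo2 stromal-like. Clusters 4 and 6 were Lcn2 Cxcl5 inflammatory-like and held 445 and 221 CL cells against 42 and 13 saline and 1 and 2 cold cells. They may therefore stand for the CL library rather than for a cell type. Cluster 6 was led by Cxcl9, Saa3 and Tmem176b, and its second-best name was Col15a1 committed preadipocyte-like (score 0.540 against 0.778). By marker scores, described below, 195 of its 236 cells fell in the Col15a1 group. Cluster 3 (Has1, Ptgs2 and haemoglobin genes leading), cluster 7 (led by macrophage and antigen-presentation genes) and cluster 8 (cycling genes) were left unnamed. In the CL library the shares of clusters 0, 1 and 2 among ASPC-like cells were 6.25%, 12.9% and 0.373%, against 27.8%, 28.8% and 7.54% in the saline library.

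**Figure D2:**
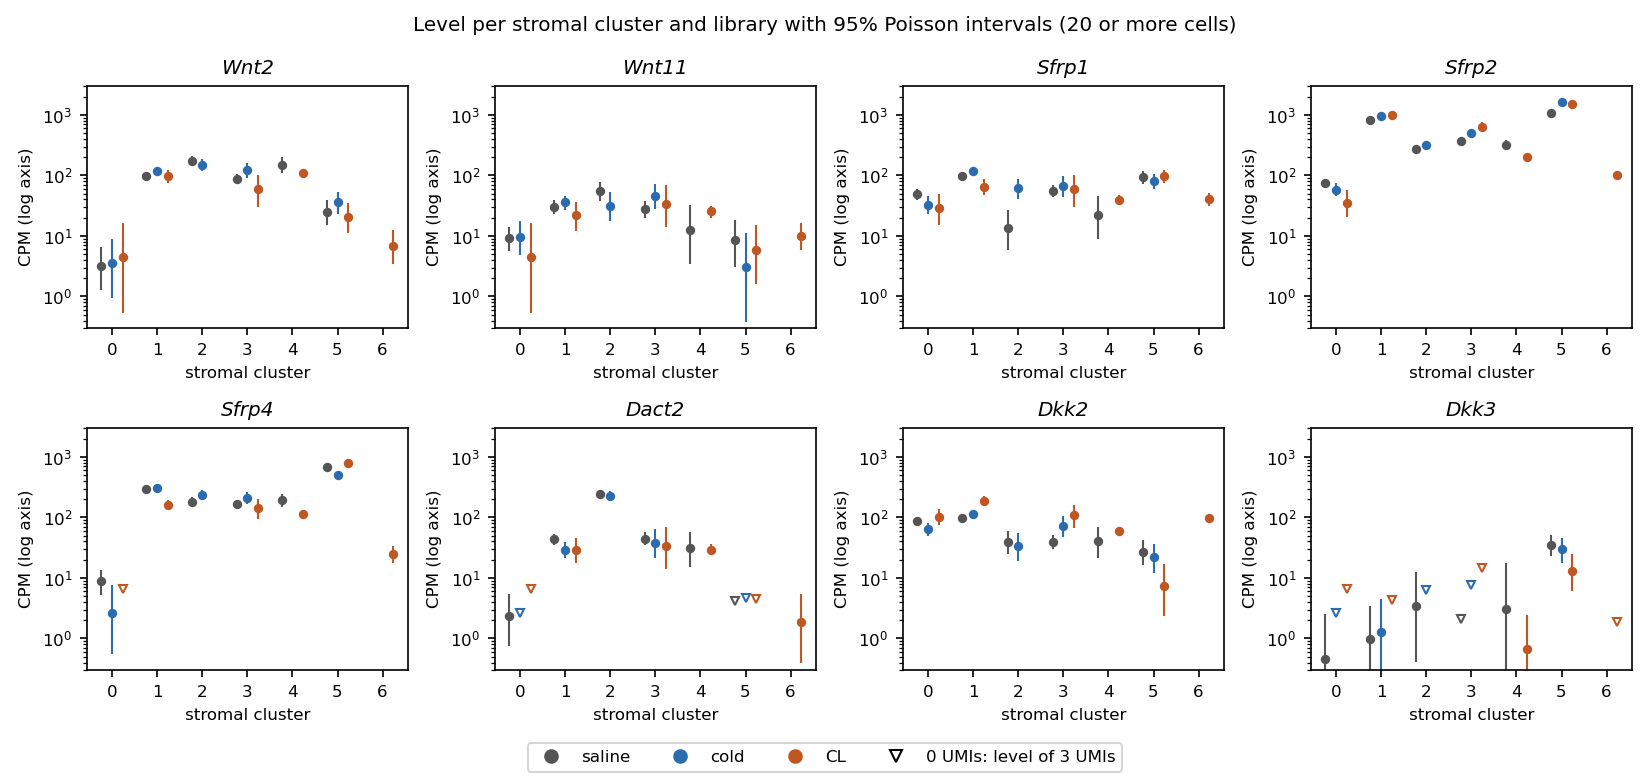
Level of each gene in CPM (log axis) in stromal clusters 0 to 6 (x axis), with points for the saline, cold and CL libraries and 95% Poisson intervals; open triangles stand at the level of 3 UMIs where none was counted, and groups under 20 cells are left out. Wnt2 is low in cluster 0, Dact2 peaks in cluster 2, Sfrp2 and Sfrp4 peak in cluster 5, and counted Dkk3 points stand above 10 CPM in cluster 5 alone.

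Among the ligands, Wnt2 was high in the interstitial-like clusters and in clusters 3 and 4, and low in the Col15a1 cluster. Its level in cluster 2 was 173 CPM (95% interval 141 to 210) in the saline and 150 CPM (117 to 189) in the cold library. In cluster 1 it was 97.2, 117 and 97.8 CPM in the saline, cold and CL libraries, and in the Col15a1 cluster 0 it was 3.23, 3.52 and 4.44 CPM. The intervals of clusters 0 and 1 did not meet in any library, and the values of the Gdf10 cluster 5 lay between theirs at 25.3, 35.8 and 20.6 CPM. Inflammatory-like cluster 4 carried Wnt2 at 149 CPM in 42 saline and 109 CPM in 445 CL cells, whereas cluster 6 carried 6.91 CPM in the CL library. Unnamed cluster 3 carried it at 87.1, 123 and 58.8 CPM in the saline, cold and CL libraries.

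Wnt11 was also higher in the interstitial-like clusters than in cluster 0, at lower levels than Wnt2. It stood at 54.8 CPM (37.5 to 77.4) in saline and 31.7 CPM (17.7 to 52.3) in cold cells of cluster 2. In cluster 1 its levels were 30.3, 35.9 and 21.9 CPM, and in cluster 0 they were 9.23, 9.69 and 4.44 CPM. The intervals of clusters 1 and 2 overlapped in the saline and cold libraries, and those of clusters 0 and 1 overlapped in the CL library. In cluster 5 only 6, 2 and 4 Wnt11 UMIs were counted. Unnamed cluster 3 carried Wnt11 at 27.4, 46.1 and 34.3 CPM, and CL cells of cluster 4 at 25.4 CPM.

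Sfrp2 and Sfrp4, which bind Wnt ligands outside the cell, both had their highest CPM in the Gdf10 cluster 5 among clusters with at least 20 cells. Sfrp2 was measured there at 1059, 1616 and 1502 CPM in the saline, cold and CL libraries. In cluster 1 it stood at 820, 950 and 985 CPM, and cluster 0 was lowest at 73.8, 58.1 and 35.5 CPM. A few cells held much of this signal: 222 of 754 UMIs of cluster 5 in the saline library came from the 3 cells with most Sfrp2, as did 344 of 1038 in cold and 353 of 1022 in CL, and 1 cold cell alone held 169. Sfrp4 stood at 669, 498 and 798 CPM in cluster 5 and at 294, 312 and 162 CPM in cluster 1. Cluster 0 was nearly devoid of Sfrp4, with 19 saline, 3 cold and 0 CL UMIs. The count of 0 among 67 CL cells allows up to 6.66 CPM (3 UMIs).

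Sfrp1 was spread more evenly. Its levels were 94.1, 81.0 and 97.0 CPM in cluster 5, 97.2, 119 and 64.2 CPM in cluster 1, and 48.4, 32.6 and 28.9 CPM in cluster 0. Clusters 1 and 5 did not differ beyond their counting intervals in the saline library. In cluster 2 Sfrp1 stood at 13.7 CPM (5.92 to 27.0) in 92 saline cells and at 61.3 CPM (41.1 to 88.0) in 67 cold cells, on 8 and 29 UMIs.

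Dkk2, an inhibitor that acts on the Lrp coreceptors, had another distribution. It was high in clusters 0 and 1, at 87.7, 63.4 and 102 CPM and at 98.2, 115 and 188 CPM, and low in cluster 5 at 26.7, 21.8 and 7.35 CPM. Cluster 6, nearly all CL cells, carried 96.1 CPM. In saline cells of cluster 0 Dkk2 thus stood above Sfrp2, Sfrp1 and Sfrp4 (73.8, 48.4 and 8.77 CPM). The counting intervals of Dkk2 and Sfrp2 overlapped there, on 190 and 160 UMIs. When cells were assigned by marker scores, described below, Dkk2 stood at 102 CPM in saline cells of the Gdf10 group. That group held 302 of the 320 cells of cluster 5. It also took in, among others, 66 cells of cluster 1, 35 of cluster 0, 40 of cluster 4 and 30 of cluster 6. The part of these added cells in the higher level was not tested. Dkk3 was mostly found in cluster 5: 25 of its 33 saline, 19 of its 21 cold and 9 of its 12 CL UMIs in ASPC-like cells lay there, at 35.1, 29.6 and 13.2 CPM.

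Dact2 had its highest level in a small part of the stroma and was found at lower levels in several other clusters. Its level in cluster 2 was 243.3 CPM (205 to 287) in saline, 226 CPM (185 to 273) in cold and 232 CPM (75.3 to 541) in the 4 CL cells. Cluster 1, of the same subtype name, stood at 43.3, 29.0 and 29.2 CPM, and its intervals did not meet those of cluster 2. No Dact2 UMI was found in cluster 5 among 123 saline, 93 cold and 104 CL cells, and cluster 0 held 5, 0 and 0 UMIs. Cluster 2 held 142 of the 315 saline and 107 of the 170 cold Dact2 UMIs of ASPC-like cells, but 5 of the 126 in the CL library. Most of the CL UMIs, 88 of the 126, lay in inflammatory-like cluster 4, at 29.4 CPM beside 31.1 CPM in its 42 saline cells. In unnamed cluster 3 Dact2 stood at 44.6, 38.4 and 34.3 CPM in the saline, cold and CL libraries.

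Detection of 2 members in the same cell was near the share over all cells of the cluster for some pairs and above it for others. In cluster 2, 72 of the 95 cells with a Wnt2 UMI also had Dact2 (75.8%), beside 111 of all 163 cells (68.1%). Sfrp4 was found in 65 of the same 95 cells (68.4%) and also in 68.1% of all cells of the cluster. In cluster 1, 362 of the 418 cells with Sfrp4 also had Sfrp2 (86.6%), beside 569 of all 710 cells (80.1%). In cluster 5, 137 of the 187 cells with Sfrp4 had Sfrp2 (73.3%), beside 194 of all 320 cells (60.6%). Larger departures were found too. In cluster 1, 67 of the 124 cells with Dact2 had Wnt2 (54.0%), beside 266 of all 710 cells (37.5%). Of the 43 cells of cluster 5 with Wnt2, 37 had Sfrp4 (86.0%), beside 58.4% of all its cells. Wnt11 was in 1 of these 43 (2.33%), beside 3.75% of all cells of that cluster. Such shares move with the depth of each cell and were not tested.

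The cold library was compared with the saline library over all ASPC-like cells to ask how Wnt regulators stood after cold exposure. A gene was counted as past 2-fold when its log2 ratio was at least 1 in size and the library with the higher level held no fewer than 20 of its UMIs. None of the 8 members was past 2-fold, where 3.27% of 10292 genes were, 1.18% higher and 2.1% lower. A 95% counting interval above 0 was found for 4 members and for 19.6% of all genes counted, and one below 0 for 0 members and 11.5% of genes. Sfrp2 stood out, at 688 CPM (663 to 713) in cold against 462 CPM (447 to 477) in saline, a log2 ratio of 0.57 (0.50 to 0.65). The other 3 were smaller: Sfrp1 was 77.6 against 64.9 CPM (log2 0.26, 0.06 to 0.46), Sfrp4 was 234 against 201 CPM (log2 0.22, 0.11 to 0.34), and Wnt2 was 76.7 against 66.3 CPM (log2 0.21, 0.01 to 0.41). Wnt11 (23.8 against 21.4 CPM), Dkk2 (74.2 against 67.6 CPM), Dkk3 (4.81 against 4.26 CPM) and Dact2 (38.9 against 40.6 CPM) had intervals that included 0. Without stromal cluster 2, left out as described below, the log2 ratio of Dact2 was -0.58.

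Cells with a Sfrp2 UMI, thinned to 2000 UMIs, were 44.6% of cold (40.5 to 48.7) and 34.2% of saline ASPC-like cells (31.5 to 37.0). With the 3 named subtypes at fixed shares Sfrp2 was 715 CPM in cold against 567 CPM in saline. That log2 ratio of 0.33 lay below the counting interval given above. The log2 ratio of Sfrp4 at these shares was -0.12, below 0. Clusters 1, 2 and 5 were 37.2%, 11.3% and 15.7% of cold against 28.8%, 7.54% and 10.1% of saline ASPC-like cells, and their part in the whole-class ratios was not tested.

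**Figure D3:**
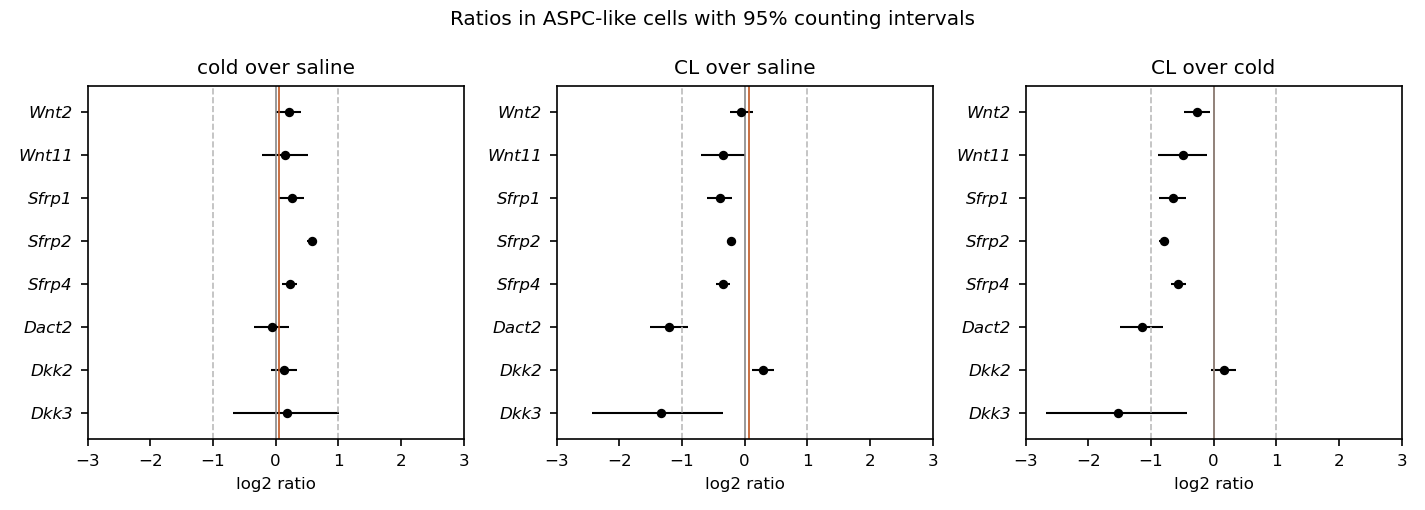
Log2 ratio of each gene (rows) in ASPC-like cells for the 3 pairs of libraries, with 95% counting intervals, dashed lines at 2-fold and an orange line at the median of all genes counted. Dact2 and Dkk3 lie beyond 2-fold in both panels that hold the CL library, Sfrp2 lies highest in cold over saline, and Dkk2 is the only one of the 8 whose value is above 0 in all 3 panels.

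The CL library was set against the saline library in the same way. Dact2 stood at 17.6 CPM (14.7 to 21.0) in CL against 40.6 CPM (36.3 to 45.4) in saline, a log2 ratio of -1.20 (-1.51 to -0.90). Dkk3 stood at 1.68 against 4.26 CPM, a log2 ratio of -1.34 (-2.43 to -0.35) on 12 and 33 UMIs. These 2 of the 8 were past 2-fold, both lower, where 2.11% of 10920 genes were past 2-fold lower and 5.37% higher. The count was 1 after thinning and without cluster 2.

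Among the Sfrp genes, Sfrp1 was 49.4 against 64.9 CPM (log2 -0.39, -0.59 to -0.19), Sfrp4 was 159 against 201 CPM (log2 -0.34, -0.45 to -0.23) and Sfrp2 was 398 against 462 CPM (log2 -0.21, -0.29 to -0.14). Dkk2 went the other way at 83.0 against 67.6 CPM (log2 0.30, 0.12 to 0.47). In all, 5 members had an interval below 0 and 1 above it, beside 17.4% and 27.3% of all genes counted. The direction of 2 of the 5 depended on the processing: Sfrp2 was 0.44 at fixed subtype shares, 0.40 when cells with over 5% mitochondrial UMIs were left out and cells clustered anew, and 0.014 with cells thinned to 2000 UMIs, and Sfrp4 was 0.26 under the same 5% limit. The ligands Wnt2 (64.0 against 66.3 CPM) and Wnt11 (16.9 against 21.4 CPM) had intervals that included 0, of -0.24 to 0.13 and -0.69 to 0.01 on the log2 scale.

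The 2 treatments were set side by side as CL over cold. Dact2 was 17.6 against 38.9 CPM (log2 -1.14, -1.49 to -0.80) and Dkk3 1.68 against 4.81 CPM (log2 -1.52, -2.67 to -0.43), again the 2 members past 2-fold and both lower, where 2.75% of 10514 genes were past 2-fold lower and 6.01% higher. This count was 1 under 6 of the 13 alternatives, and Dact2 stood at 0.07 without cluster 2. Sfrp2 was 398 against 688 CPM, a log2 ratio of -0.79 (-0.86 to -0.71). Sfrp1 (log2 -0.65), Sfrp4 (log2 -0.56), Wnt11 (log2 -0.49) and Wnt2 (log2 -0.26) also had intervals below 0, as 18.1% of all genes did. The interval of Dkk2 (log2 0.16, -0.04 to 0.36) included 0, and 19.3% of genes had one above it.

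The Dact2 ratio was also taken without cluster 2. Without that cluster, which was left out after its high Dact2 level and its 4 CL cells were seen, Dact2 stood at 24.1, 16.2 and 17.0 CPM in the saline, cold and CL libraries. The log2 ratios were then -0.58 for cold over saline, -0.51 for CL over saline and 0.07 for CL over cold, none past 2-fold. Within cluster 1 the Dact2 ratio was -0.58 (-1.13 to -0.05) for cold over saline. For CL over saline it was -0.57 there, with an interval that included 0 (-1.35 to 0.14). When each ASPC-like cell was instead given to 1 of 3 subtypes by its marker score, leaving out the inflammatory markers, the Pi16 Dpp4 group held 689 saline, 320 cold and 593 CL cells. Dact2 stood at 72.1, 72.2 and 31.8 CPM in that group, a log2 ratio of -1.18 (-1.50 to -0.87) for CL over saline. Of the 488 cells of cluster 4 this scoring placed 438 in the Pi16 Dpp4 group, and 142 cells lay within 0.1 of the cut. The part of cell numbers in the Dact2 ratio was not tested.

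Markers of other cell types were measured in the same cells. In ASPC-like cells all 10 macrophage markers were found in the saline and CL libraries, with a summed level of 72.7 and 118 CPM, and 9 of 10 in the cold library at 27.7 CPM, Fcgr1 being at 0. The 8 monocyte markers summed to 617, 455 and 2056 CPM, with Fcnb at 0 in all 3 libraries. The 5 red cell markers summed to 1188, 1103 and 1325 CPM. Without the immune-led cluster 7 the level of Dact2 was 41.7, 39.5 and 18.4 CPM, of Sfrp2 471, 692 and 392 CPM, and of Dkk2 69.2, 74.6 and 80.8 CPM, each in the same order across libraries as with that cluster.

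Within single clusters several inhibitors did not follow the whole-class ratio. In the Gdf10 cluster 5 Sfrp2 was 1616 and 1502 CPM in cold and CL against 1059 CPM in saline, log2 ratios of 0.61 (0.47 to 0.75) and 0.50 (0.37 to 0.64). In the saline, cold and CL cells of cluster 5 the 8 monocyte markers summed to 559, 318 and 1508 CPM (3, 3 and 6 with a UMI) and the 5 red cell markers to 407, 916 and 473 CPM (4, 5 and 4 with a UMI), and their part in the ratios was not tested. In cluster 1 its ratios were 0.21 and 0.26, with intervals above 0, and in cluster 0 the CL ratio was -1.05 (-1.90 to -0.31). The CL library thus had more Sfrp2 than saline in clusters 1 and 5 although its whole-class level was lower. Inflammatory-like cluster 4, 41.5% of CL ASPC-like cells, went with the whole class. There Sfrp2 was 200 CPM in CL against 317 CPM in saline (log2 -0.67, -0.97 to -0.35), on 598 and 102 UMIs. At fixed shares of the 3 named subtypes, which leaves out the inflammatory-like clusters, the CL over saline ratio of Sfrp2 was 0.44. By marker score the sign was the other one: the ratio was -0.33 in the Pi16 Dpp4 group and -0.44 in the Gdf10 group. Of the cells of inflammatory-like clusters 4 and 6, 438 and 11 were in the Pi16 Dpp4 group and 40 and 30 in the Gdf10 group. The Col15a1 group took 10 cells of cluster 4 and 195 of cluster 6.

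Sfrp4 split by cluster too. In cluster 1 it was 162 CPM in CL against 294 CPM in saline (log2 -0.86, -1.17 to -0.57), and in cluster 5 it was 798 against 669 CPM (log2 0.25, 0.07 to 0.44). In inflammatory-like cluster 4 it was 113 against 193 CPM (log2 -0.77, -1.17 to -0.36). Cold over saline for Sfrp4 was 0.08 in cluster 1, where the interval included 0, and -0.42 (-0.63 to -0.22) in cluster 5. The difference between the clusters was not tested, and by marker score the CL ratio of Sfrp4 was below 0 in both groups, at -0.61 (Pi16 Dpp4) and -0.43 (Gdf10).

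Dkk2 was higher in CL than in saline cells of cluster 1, at 188 against 98.2 CPM (log2 0.94, 0.61 to 1.26). In the same saline and CL cells the 10 endothelial markers summed to 41.4 and 212 CPM (10 and 9 with a UMI), the 8 monocyte markers to 642 and 1048 CPM (6 and 7) and the 5 red cell markers to 395 and 768 CPM (5 and 4), and their part in the cluster 1 ratios was not tested. Its ratio in cluster 0 was 0.22, with an interval that included 0. Cluster 3 gave 108 against 39.1 CPM for Dkk2 (log2 1.46, 0.68 to 2.20), but on 22 UMIs in 35 CL cells. In those CL cells the 5 red cell markers summed to 30493 CPM, against 3571 CPM in the saline and 1017 CPM in the cold cells of cluster 3, and the part of this in the ratio was not tested. By marker score, Dkk2 in the Pi16 Dpp4 group stood at 46.5, 70.9 and 72.5 CPM, with log2 ratios over saline of 0.61 for cold and 0.64 for CL.

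**Figure D4:**
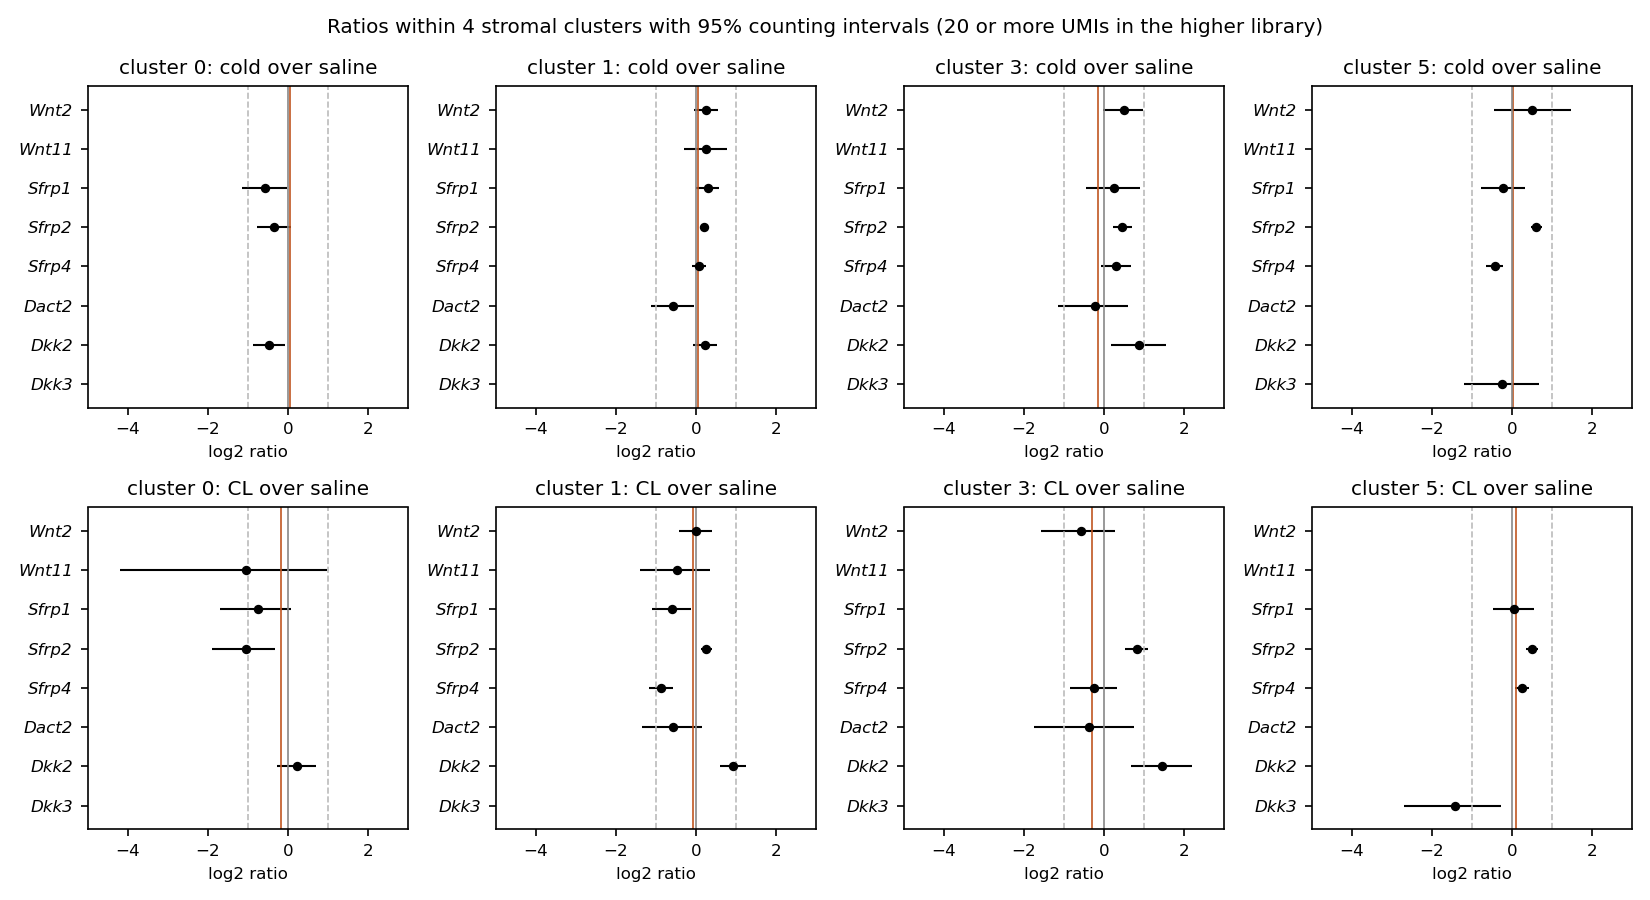
Log2 ratio of each gene in stromal clusters 0, 1, 3 and 5 for cold over saline (top) and CL over saline (bottom), with 95% counting intervals, dashed lines at 2-fold and an orange line at the median of the genes counted; genes under 20 UMIs in the higher library have no point. Sfrp2 lies right of 0 in clusters 1, 3 and 5 in both rows and left of 0 in cluster 0, and Dkk2 lies right of 0 in clusters 1 and 3.

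Outside the stroma, Wnt11 was found in dendritic cells. Conventional dendritic cell-like cells carried it at 26.8, 29.8 and 35.9 CPM in the saline, cold and CL libraries, in 10.2%, 13.5% and 12.5% of cells, beside 21.4, 23.8 and 16.9 CPM in ASPC-like cells. The intervals of these 2 classes overlapped in the saline and cold libraries and did not meet in the CL library. No B cell-like cell of the saline or cold library had a Wnt11 UMI, among 1237 and 1066 cells. Among the dendritic clusters, that led by Cd209a had 43.4, 29.6 and 62.9 CPM of Wnt11, and that led by Apol7c, Ccl22 and Fscn1 had 27.3, 34.1 and 40.6 CPM. The Xcr1 cluster was lower at 9.03, 6.61 and 11.2 CPM. The CL over saline log2 ratio in the whole class was 0.42 (-0.01 to 0.84), so the interval included 0. Monocyte-like cells had 17.8, 6.97 and 6.70 CPM on 12, 2 and 48 UMIs.

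Dkk2 was also found in the Ccl22 Fscn1 dendritic cluster, at 12.6, 19.7 and 3.87 CPM on 23, 26 and 2 UMIs. Sfrp1 was found in a small Schwann-like cluster with Kcna1 and Matn2 among its leading genes. Its level there was 291, 234 and 860 CPM, but on 15, 8 and 27 UMIs in 18, 15 and 13 cells, and 3 cells of each library held 11, 6 and 18 of these. Dkk3 was found in the other Schwann-like cluster at 72.7, 72.6 and 44.1 CPM (8, 12 and 2 UMIs), in the Xcr1 dendritic cluster at 12.3, 14.9 and 18.7 CPM, and in lymphatic endothelial-like cells of the saline library at 24.7 CPM on 9 UMIs. Over the 3 libraries 13 of the 108 cells of the lymphatic cluster had Dkk3, and 5 of these had Prox1, the defining lymphatic factor. Another 4 were among its 7 cells with Sfrp5, none of which had Prox1.

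The wider pathway was measured in ASPC-like cells with 95 genes in 8 lists, of which 58 had at least 20 UMIs in a library. Of the 19 Wnt ligands 7 reached this level, and in CL over saline all 7 ratios were below 0 with a median of -0.51, beside 43.3% below 0 and a median of 0.07 for all genes counted. The counting interval was below 0 for 4 of the 7, beside 17.4% of all genes counted, and it included 0 for Wnt2, Wnt11 and Wnt10b. Past 2-fold was Wnt4 alone, at 1.96 against 4.00 CPM on 14 and 31 UMIs. Wnt5a, a ligand that mostly acts without beta-catenin, stood at 60.1, 68.0 and 42.3 CPM in the saline, cold and CL libraries. In cold over saline 4 of the 7 were above 0 and 3 below it, beside 42.4% of all genes below 0. None of the 7 passed 2-fold there, where 3.27% of genes did. Wnt5b was past 2-fold only in CL over cold, at 6.86 against 17.6 CPM. Wls, which carries Wnt proteins to the cell surface, stood at 105, 102 and 83.6 CPM, and Porcn, which attaches their lipid, at 4.38, 4.81 and 4.20 CPM.

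Of 16 secreted inhibitors 7 reached 20 UMIs, the 5 members on this list among them. Igfbp4 was the most abundant of the list at 1053, 1165 and 1156 CPM. Sfrp5 had 37 UMIs in CL ASPC-like cells, all in 2 cells, and 1 and 0 UMIs in saline and cold, so that its place past 2-fold rests on 2 cells. Frzb and Wif1 had no UMI and Dkk1 had 1 in saline ASPC-like cells, where 3 UMIs would be 0.387 CPM. Of 13 intracellular or membrane inhibitors 8 reached 20 UMIs, and Dact2 was the 1 past 2-fold. Its paralog Dact1 stood at 164, 154 and 119 CPM, Tmem88 at 75.1, 49.5 and 45.5 CPM and Kremen1, a receptor of Dickkopf proteins, at 39.2, 37.6 and 31.9 CPM.

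Of 16 receptors and coreceptors 12 reached 20 UMIs. Fzd8 was past 2-fold lower in CL over saline at 5.88 against 14.2 CPM, and Fzd5 in cold over saline at 5.73 against 12.1 CPM. Fzd10 passed 2-fold in CL over cold, on 20 and 5 UMIs. Ryk (101, 113 and 101 CPM), Lrp6 (94.5, 85.7 and 67.3 CPM) and Fzd4 (61.9, 65.3 and 62.8 CPM) were the highest of the list.

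Of 7 R-spondins and their receptors, which strengthen Wnt signalling, 5 reached 20 UMIs, and 2 of these differed in opposite directions. Rspo3 was 18.6 CPM in CL against 5.29 CPM in saline (log2 1.82, 1.30 to 2.36) and 6.87 CPM in cold. The receptor Lgr5 was 5.03, 2.29 and 0.840 CPM, log2 ratios over saline of -1.13 for cold and -2.58 for CL, on 39, 10 and 6 UMIs. Lgr4 stood at 16.0, 15.3 and 11.9 CPM and Rspo1 at 6.83, 10.1 and 8.82 CPM.

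None of 13 measured core genes of the beta-catenin pathway passed 2-fold, where 3.27% of all genes counted did in cold over saline. In CL over saline 5.37% of genes were past 2-fold higher and 2.11% lower. There 10 of the 13 ratios were below 0, beside 43.3% of genes, and 5 had a counting interval below 0, beside 17.4%. In cold over saline 8 of the 13 were below 0, beside 42.4% of genes. Csnk1a1, Ctnnb1 and Gsk3b, the highest of them, stood at 226, 198 and 215 CPM, at 156, 134 and 136 CPM and at 122, 113 and 105 CPM. Of 15 widely used Wnt target genes 7 were measured, and Lgr5 was the 1 past 2-fold, lower in both comparisons. In CL over saline 6 of the 7 ratios were below 0, beside 43.3% of genes, and 3 had a counting interval below 0, beside 17.4%. Axin2, the most widely used target, stood at 5.03, 4.81 and 4.90 CPM on 39, 21 and 35 UMIs. Myc stood at 154, 95.1 and 92.0 CPM, Wisp2 at 55.8, 64.6 and 40.9 CPM and Ccnd1 at 41.7, 42.1 and 43.4 CPM.

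**Figure D5:**
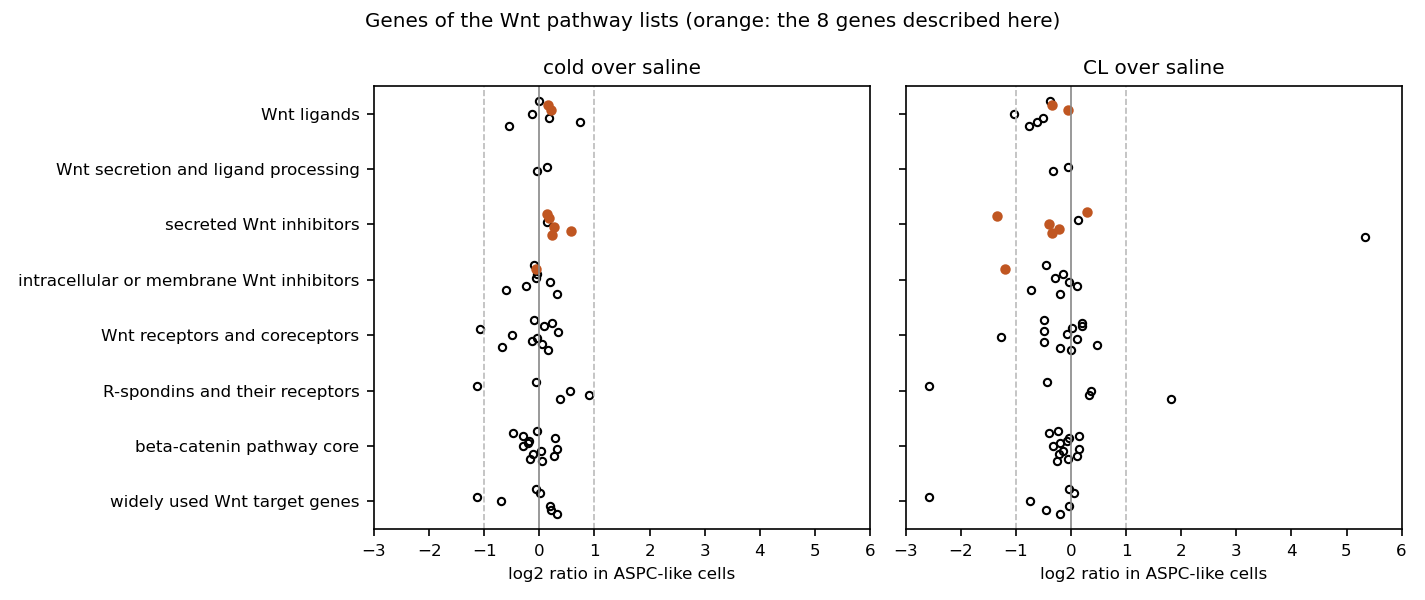
Log2 ratio in ASPC-like cells of each Wnt-list gene that reached 20 UMIs in the library where it was higher, by list (rows), for cold over saline and CL over saline; filled orange points are the 8 genes described, open points the other genes, and dashed lines mark 2-fold. All Wnt ligand points lie left of 0 in CL over saline, and the core beta-catenin genes stay inside the dashed lines in both panels.

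The genes most like each member were found by Pearson correlation of log2(CPM + 5) over 44 points, each a cell class or stromal subtype in 1 library. Points of a library share its depth, and the contrast of stromal with immune cells dominates, so these values are descriptions. Wnt2 was most like Prkg2 (r = 0.96), Adgrg2 (0.96) and Ildr2 (0.96), and Dact2 was most like Stmn4 (0.98), Duox1 (0.97) and Gpr1 (0.97). Sfrp1 was most like Fgf7 (0.98), Aldh1a1 (0.98) and Efs (0.97). The nearest genes to Sfrp2 were Fbln1 (0.98), C7 (0.97) and Cpz (0.97). Sfrp4 lay nearest to Sfrp2 itself (0.96), then Cpz (0.95) and Gabra3 (0.95). For Dkk2 they included Lrrn4cl (0.95) and Col6a6 (0.94). The values were lower for the 2 members not bound to the stroma: Wnt11 with Pvrl1 (0.84), Ptgs2 (0.81) and Zfp385a (0.79), and Dkk3 with, among others, Matn2 (0.83) and Cpe (0.83).

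By position (mm10), Sfrp2 lies on chromosome 3 from 83766321 to 83774316 and Dkk2 on the same chromosome from 132085292 to 132180304. Wnt11 (98835112 to 98855195) and Dkk3 (112116017 to 112159057) are both on chromosome 7. Wnt2 spans 17988940 to 18030585 on chromosome 6, Sfrp1 23411502 to 23449632 on chromosome 8, Sfrp4 19623104 to 19632994 on chromosome 13 and Dact2 14195052 to 14204304 on chromosome 17. All 8 are protein-coding and none overlaps another annotated gene on its own strand. A gene on the opposite strand overlaps Wnt11 (Gm8398), Sfrp2 (Gm26771) and Dact2 (AC151292.1), and the strand setting of the counting is not given in the sources used here.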

How the data were processed

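The deposited values are unnormalised UMI counts of each gene in each barcode of 10x single-cell libraries, which the authors made with Cell Ranger 3.0.2 on mm10, per the file headers and the submitters' processing notes. Barcodes with at least 500 genes and at most 15% mitochondrial UMIs were kept, and doublets were called per library with Scrublet in scanpy 1.11.5. Counts were scaled to 10000 per cell, log-transformed and reduced to 2000 variable genes without Wnt-list genes and 30 principal components. Leiden clusters (15 neighbours, resolution 1, and 0.5 within ASPC-like cells) were named from marker lists, and the limits of naming were chosen after the clusters were seen. 1187 cells lay in unnamed clusters. UMIs were summed per class and library, since cells are not replicates. Levels carry exact Poisson intervals, ratios exact conditional binomial intervals and shares Clopper-Pearson intervals, computed with scipy 1.17.1, and the interval code was tested on simulated data. The libraries held 25875379 (saline), 19899223 (cold) and 29323106 (CL) UMIs. Named besides the members were Wnt-list genes past 2-fold, the 3 highest of each list, 4 paralogs, and the 3 genes most like each member among those with at least 100 UMIs. Some genes that this rule names are not reported here. The members and lists were chosen with earlier results of these data known. Alternatives covered doublets, quality limits, clustering genes, resolution, scaling, top cells, thinning and subtype shares.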

Additional observations from a re-analysis of the deposited data

Results flagged for a closer look

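Several ratios had opposite signs in different groups of cells, with counting intervals on either side of 0, and the difference between the groups was not tested in any of them. For Sfrp1, cold over saline was 2.16 on the log2 scale in stromal cluster 2 (29 and 8 UMIs) and -0.57 in cluster 0. CL over saline for Sfrp1 was 1.92 in Schwann-like cells and -0.60 in stromal cluster 1, and CL over cold was 3.13 and -0.89 in the same groups, on 27 Schwann-like UMIs in the CL library of which 18 came from 3 cells. Sfrp2 in CL over saline was 0.82 in stromal cluster 3 and -1.05 in cluster 0. Sfrp4 in CL over saline was 0.25 in stromal cluster 5 and -0.86 in cluster 1, and in CL over cold 0.68 and -0.94.

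Dkk2 in cold over saline was 0.88 in stromal cluster 3 and -0.47 in cluster 0. In CL over saline it was 1.46 in stromal cluster 3 and -2.34 in conventional dendritic cell-like cells, where the CL library held 2 Dkk2 UMIs. In CL over cold it was 0.72 in stromal cluster 1 and -3.02 in those dendritic cells.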

How the results depend on the processing

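Each log2 ratio of the 8 genes in ASPC-like cells was recomputed under every alternative, 312 values in all. Of these, 261 lay within the reported counting interval, 43 lay outside it, and 8 took the other sign from a reported value whose interval left out 0. At fixed subtype shares, which leave out the inflammatory-like clusters, Sfrp4 in cold over saline was -0.12, Sfrp2 in CL over saline 0.44 and Sfrp2 in CL over cold 0.11. Thinned to 2000 UMIs, Sfrp2 in CL over saline was 0.014 and Wnt11 in CL over cold 0.0065. At no more than 5% mitochondrial UMIs, Sfrp2 and Sfrp4 in CL over saline were 0.40 and 0.26. Of 2530 ASPC-like cells within that limit 996 then fell into unnamed clusters, and with the classes kept no direction of these 2 genes differed (-0.31 and -0.36). Without stromal cluster 2, Dact2 in CL over cold was 0.070.

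The number of members past 2-fold in CL over saline was 1, not 2, after thinning and without stromal cluster 2. In CL over cold it was 1 with at least 1000 genes per cell, as a mean over cells, without the 3 top cells, after thinning, at 5% mitochondrial UMIs with the classes kept, and without stromal cluster 2. The saline level in the highest subtype moved beyond its interval as follows. With doublets kept Wnt2 was 166 CPM, Wnt11 47.2 CPM and Dact2 220 CPM. By marker scores Sfrp1 was 149 CPM, Sfrp2 1324 CPM, Dact2 72.1 CPM and Dkk2 102 CPM. Without the 3 top cells Sfrp2 was 747 CPM and Sfrp4 510 CPM, and at resolution 1 Dact2 was 99.2 CPM. Apart from the effects of leaving out cells by construction, the cause was not tested. The marker scores, the 5% limit with classes kept and leaving out stromal cluster 2 or 7 were chosen after seeing the data. Dkk3 had 33, 21 and 12 UMIs in ASPC-like cells, close to the limit of 20 UMIs. No paired analysis was possible because each treatment had 1 library, and no replicate could be left out.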

Other observations

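The paralog Sfrp5 was found in Schwann-like cells at 229, 181 and 417 CPM in the saline, cold and CL libraries, on 37, 36 and 32 UMIs in 22, 23 and 15 cells. It was also found in the lymphatic endothelial-like cluster, at 128 UMIs in 5 saline cells and 42 UMIs in 2 CL cells. In that cluster 57 of 108 cells had a UMI of Prox1, the defining lymphatic factor, 7 had Sfrp5 and 0 had both. Frzb, a related Wnt-binding protein, had 7, 23 and 8 UMIs in Schwann-like cells of its 8, 23 and 8 UMIs in all cells. The same class held Dkk3 and Sfrp1, described above.

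Barcodes left out by the quality limits numbered 1403, 1188 and 1238 in the saline, cold and CL libraries. Sfrp2 had 19, 30 and 16 UMIs in them, at 14.1, 18.6 and 12.4 CPM, and each other member had between 0 and 10 UMIs per library.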
